A study of Homo sapiens with 13 samples.

Results

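AP-1 is a transcription factor made of paired basic leucine zipper proteins of the FOS and JUN families, and 10 genes of its subunits and of the early response around it were followed here through an RNA-seq study of RSF1 in ovarian cancer cells. They are the FOS subunits FOS, FOSB, FOSL1 and FOSL2, the JUN subunits JUN, JUNB and JUND, the related factor ATF3, and the immediate early genes EGR1 and IER3. They were chosen by symbol, with earlier results of these data known, as 10 of 62703 genes listed. All 10 passed the filter on low counts in both cell lines. RSF1 is a histone chaperone and remodelling factor that binds ubiquitinated histone H2A through its UAB region.

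The study measured poly-A RNA in 13 libraries. SKOV3 ovarian cancer cells carried a control vector, overexpressed RSF1, or overexpressed RSF1delUAB, which lacks the UAB region, with 3 libraries each. OVCAR3 ovarian cancer cells expressed a scrambled control or the UAB peptide, with 2 libraries each, and all 4 OVCAR3 libraries, controls included, came from cells given 2000 ng/mL doxycycline for 6 days. The labels give no drug treatment for SKOV3. They do not say whether a line was 1 clone or whether replicates were separate cultures. Each p-value thus speaks to the variation among these libraries, part of which may be technical. Whether a difference came from the construct or from the cells that carried it was not tested.

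JUN proteins pair with each other or with FOS proteins, whereas FOS proteins need a JUN partner, and the pairs bind short DNA elements in promoters and enhancers. FOS, FOSB, JUN, JUNB, ATF3, EGR1 and IER3 are classical immediate early genes, induced within minutes of growth factor or stress signals without new protein synthesis. FOSL1 and FOSL2 lack the strong activation domain of FOS and are often the steadier FOS proteins of carcinoma cells, where AP-1 acts on invasion, inflammation and cell cycle genes.

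The promoters of 4 genes are shown because FOS, EGR1 and JUNB rose together with RSF1delUAB while JUN fell. Each sequence is the 250 bases before the RefSeq start on GRCh38.p14, read 5′ to 3′ on the gene's strand. They lie at chr14:75278578-75278827 (FOS, plus strand), chr5:138465229-138465478 (EGR1, plus strand), chr19:12791236-12791485 (JUNB, plus strand) and chr1:58784048-58784297 (JUN, minus strand). Capitals mark TGACG on either strand (CGTCA where reversed), the core of cyclic AMP response elements, the JUN element TGACATCA, and the CArG box, the element of serum response factor.
FOS: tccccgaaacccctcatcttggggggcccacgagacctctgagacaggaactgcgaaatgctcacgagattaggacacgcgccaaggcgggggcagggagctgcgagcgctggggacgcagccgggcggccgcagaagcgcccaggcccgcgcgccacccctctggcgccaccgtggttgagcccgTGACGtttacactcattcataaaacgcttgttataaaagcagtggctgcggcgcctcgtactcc
EGR1: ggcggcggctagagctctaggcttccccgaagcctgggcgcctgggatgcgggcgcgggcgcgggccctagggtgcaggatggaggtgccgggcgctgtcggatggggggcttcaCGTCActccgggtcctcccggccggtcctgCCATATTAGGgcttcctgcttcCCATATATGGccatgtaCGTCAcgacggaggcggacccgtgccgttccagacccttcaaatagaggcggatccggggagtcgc
JUNB: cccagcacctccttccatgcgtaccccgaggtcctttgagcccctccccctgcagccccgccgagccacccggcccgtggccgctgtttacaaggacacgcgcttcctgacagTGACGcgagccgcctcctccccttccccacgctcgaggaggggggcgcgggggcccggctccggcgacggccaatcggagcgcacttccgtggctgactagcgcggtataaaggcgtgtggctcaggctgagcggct
JUN: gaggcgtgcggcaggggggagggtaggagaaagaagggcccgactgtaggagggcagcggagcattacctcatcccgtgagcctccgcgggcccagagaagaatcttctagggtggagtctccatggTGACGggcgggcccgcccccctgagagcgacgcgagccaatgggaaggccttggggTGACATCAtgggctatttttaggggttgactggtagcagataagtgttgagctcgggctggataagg
TGACG began at position -64 from the start in FOS, -137 in JUNB, -123 in JUN, and -135 and -66 in EGR1. It was found in 21.7% of 27305 promoter windows of that length. JUN held TGACATCA at -67, an element of 2.45% of windows, which does not overlap its TGACG match. The AP-1 consensus TGACTCA, an element of 4.16% of windows, was searched too and was not in the 4 windows shown. EGR1 held CArG boxes at -105 and -83, an element of 1.14% of windows. The windows of FOS, JUNB and JUN held none, and bases further upstream were not searched. The promoters shown of FOS, EGR1 and JUNB, which rose, and of JUN, which fell, thus all held TGACG in this window. The windows of FOSB, FOSL2 and JUND, not shown, held it too, and those of ATF3 did not. JUND also held TGACGTCA at -200, and ATF3 held TGACATCA at -123. A match is a description of letters, and none of these data measured binding there.

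The level of RSF1 itself checks the labels. Levels are counts scaled to library size (CPM, with TMM factors). RSF1 stood at 42.2, 47.5 and 42.2 CPM in SKOV3 control libraries, at 631, 775 and 749.8 CPM with RSF1, and at 459, 496 and 509 CPM with RSF1delUAB. In OVCAR3 it stood at 564 and 707 CPM with the scrambled control and at 787 and 586 CPM with the UAB peptide, where the groups overlapped. The gene total thus separates the SKOV3 construct libraries from control, but it does not check which construct a SKOV3 library carries, nor the OVCAR3 labels. Total counts ran from 15194678 to 18748009 in SKOV3 and from 18160558 to 24026993 in OVCAR3. The ovarian carcinoma marker PAX8 was present in every library (273.6 to 716 CPM). ERBB2, amplified in SKOV3, averaged 8430.0 CPM in control, 2493 CPM in RSF1 and 7567 CPM in RSF1delUAB libraries, against 128 and 115 CPM in OVCAR3. The epithelial cadherin CDH1 did not exceed 1.08 CPM in SKOV3 and MUC16 had 7 counts there in all. The keratins KRT7, KRT8, KRT18 and KRT19 were each at least 119.9 CPM in every SKOV3 library. Of 16 carcinoma and epithelial markers, 11 averaged at least 1 CPM in control, 13 in each construct group and 15 in each OVCAR3 group. FOLR1 averaged 0.088 CPM in control, 2.64 with RSF1 and 20.4 with RSF1delUAB. The 6 immune markers summed to at most 1.91 CPM in SKOV3, with CD3E at 0, and in OVCAR3 to 9.11 to 11.02 CPM with the scrambled control and 3.88 to 4.61 CPM with the peptide. The 7 fibroblast markers summed to 6.35 to 7.96 CPM in control, 51.8 to 53.4 CPM in RSF1 and 118.9 to 129.9 CPM in RSF1delUAB libraries. The 4 endothelial markers summed to 5.23 to 7.63 CPM in control, 0.635 to 0.943 CPM in RSF1 and 0.532 to 0.924 CPM in RSF1delUAB libraries, and in OVCAR3 to 11.7 to 14.2 CPM with the scrambled control and 16.3 to 22.4 CPM with the peptide. The part of these markers in the results was not tested.

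FOS and JUN subunits differed from control in different directions in the construct libraries. In RSF1 libraries FOS, FOSB and FOSL1 were lower and FOSL2, JUN and JUND were higher. In RSF1delUAB libraries FOS, FOSL2, JUNB and JUND were higher and FOSB, FOSL1 and JUN were lower. With RSF1, 5 of the 10 genes rose, 4 fell and JUNB was not called at an adjusted p under 0.05. That comparison called 67.3% of all 16735 tested genes (34.3% higher, 32.9% lower), so 9 of 10 is read against a large background. With RSF1delUAB 5 rose and 5 fell, beside 66.6% of all genes called (34.5% higher, 32.1% lower). Both sets of fold changes share the same 3 control libraries. For FOS, JUN and IER3 the 2 constructs were called in opposite directions, and for the other 6 called in both the direction was the same. Some of the opposed changes were small. With RSF1 FOS fell 1.43-fold and JUN rose 1.19-fold, and IER3 rose 1.21-fold with RSF1 and fell 1.16-fold with RSF1delUAB. Each of these exceeded the change of only 22.5% to 47% of tested genes. The falls of FOS and IER3 were not called in every setting, as given below. Tested directly, RSF1 cells had higher levels than RSF1delUAB cells for 5 genes and lower levels for 3, beside 38.6% of all genes called (18.5% higher, 20.2% lower). In OVCAR3, 7 of the 10 genes were lower and 0 higher with the UAB peptide, beside 10.9% of 18359 genes called (5.45% higher, 5.46% lower). The count of 0 higher genes was the same at an unadjusted p under 0.05 and with DESeq2 and limma-voom. Groups did not overlap for 9, 10, 8 and 8 of the 10 genes in these 4 comparisons, beside 69.0%, 72.9%, 46.9% and 54.1% of all genes.

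**Figure D1:**
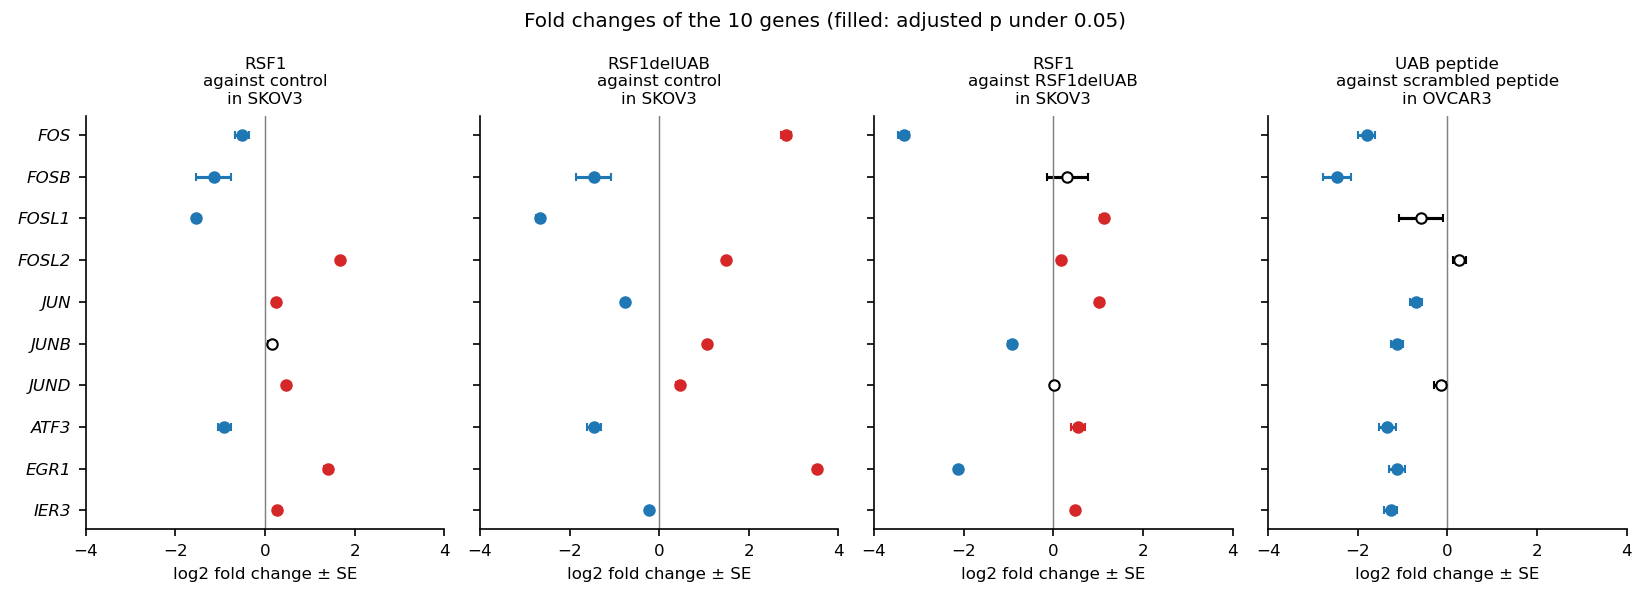
Log2 fold change of each gene (horizontal axis, bars are the standard error of the fit) in the 4 comparisons, with filled points at an adjusted p under 0.05, red for higher and blue for lower. FOS stands at -0.51 with RSF1 and 2.83 with RSF1delUAB, FOSL2 rises in both, and the OVCAR3 panel holds no filled point to the right of 0.

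Gene positions are those of the deposited tables, on GRCh38. Among FOS subunits, FOS itself, the founding member of the family (ENSG00000170345, chromosome 14, 75278826 to 75282230), set the constructs apart most. Its level was 6.62, 5.57 and 6.40 CPM in SKOV3 control libraries, 5.15, 3.30 and 4.59 CPM with RSF1, and 44.0, 45.2 and 43.1 CPM with RSF1delUAB. All 3 RSF1delUAB libraries lay far above the other 6, and the RSF1 libraries lay below control without overlap. FOS fell by 0.51 on the log2 scale with RSF1 (SE 0.154, adjusted p = 0.00627) and rose by 2.83 with RSF1delUAB (SE 0.120, adjusted p = 4.91e-14), a 7.11-fold rise. The fall with RSF1 was -0.33 without RSF1 replicate 2 and was then not called (adjusted p = 0.0584). RSF1 cells had 10.1-fold less FOS than RSF1delUAB cells (log2 fold change -3.34, SE 0.126, adjusted p = 5.06e-14), a change larger than that of 99.2% of tested genes. In OVCAR3 FOS stood at 193 and 315 CPM with the scrambled control and 73.9 and 72.1 CPM with the UAB peptide. The 2 peptide libraries lay close together below both controls, which themselves differed. The log2 fold change was -1.80 (SE 0.190, adjusted p = 2.87e-05).

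FOSL1, which encodes FRA1, the FOS protein tied to invasive carcinoma cells (ENSG00000175592, chromosome 11, 65892049 to 65900573), fell in both construct groups. Its level was 169, 175 and 164 CPM in control, 63.6, 54.0 and 57.5 CPM with RSF1 and 26.3, 25.0 and 28.8 CPM with RSF1delUAB. The 3 groups formed 3 separate steps with no overlap. The log2 fold changes were -1.54 with RSF1 (SE 0.0755, adjusted p = 5.03e-13) and -2.67 with RSF1delUAB (SE 0.0803, adjusted p = 2.57e-16). The direct difference of 1.13 passed the test (SE 0.0808, adjusted p = 7.97e-10). In OVCAR3 the gene was near the limit of detection, at 1.24 and 1.51 CPM with the scrambled control and 0.588 and 1.26 CPM with the peptide, from 12 to 35 reads. Those groups overlapped, and the difference of -0.59 (SE 0.489) was not called (adjusted p = 0.503).

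FOSL2, which encodes FRA2 (ENSG00000075426, chromosome 2, 28392448 to 28417317), moved against FOSL1. It stood at 175, 168 and 174 CPM in control, at 492, 556 and 612 CPM with RSF1, and at 489, 490.3 and 484 CPM with RSF1delUAB. Every construct library lay above every control. The rise was 3.21-fold with RSF1 (log2 fold change 1.68, SE 0.0712, adjusted p = 5.02e-14) and 2.83-fold with RSF1delUAB (SE 0.0709 on the log2 scale, adjusted p = 2.72e-13). The difference between constructs was small (0.18, SE 0.0687, adjusted p = 0.0421) and was not called without RSF1 replicate 2 or 3 or without any 1 RSF1delUAB replicate (adjusted p 0.0684 to 0.221). Without RSF1 replicate 3 it was 0.105, and with only the 2 groups compared in the fit it was not called either (adjusted p = 0.0732). Without RSF1 replicate 1 it was 0.26 and was called (adjusted p = 1.21e-05), so it depends on the libraries kept. OVCAR3 levels were 80.5 and 87.5 CPM with the scrambled control and 111 and 91.2 CPM with the peptide. Peptide libraries were higher without overlap, and the difference of 0.27 (SE 0.141) was not called (adjusted p = 0.257).

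FOSB, a FOS subunit known from stimulated neurons and fibroblasts (ENSG00000125740, chromosome 19, 45467995 to 45475179), was almost silent in SKOV3. It had 16, 23 and 24 reads in control, 12, 8 and 9 with RSF1, and 13, 6 and 7 with RSF1delUAB. Control libraries were higher than all others. The log2 fold changes were -1.15 with RSF1 (SE 0.393, adjusted p = 0.0141) and -1.47 with RSF1delUAB (SE 0.399, adjusted p = 0.00303), and the constructs were not called different (0.32, SE 0.449, adjusted p = 0.618). The call with RSF1 was lost without control replicate 2 or 3 or RSF1 replicate 2 or 3 (adjusted p 0.051 to 0.061). In OVCAR3 FOSB stood at 24.3 and 56.6 CPM with the scrambled control and 8.09 and 6.55 CPM with the peptide. Both peptide libraries were lower than both controls, which spread widely, and the log2 fold change was -2.46 (SE 0.304, adjusted p = 0.000119). FOSB overlaps ERCC1 on the opposite strand, which had 6524 reads in SKOV3 against 118 for FOSB. In OVCAR3 ERCC1 had 2248 reads against 2163 for FOSB. The use of strand in counting is not given in the sources used here, so their reads cannot be told apart.

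**Figure D2:**
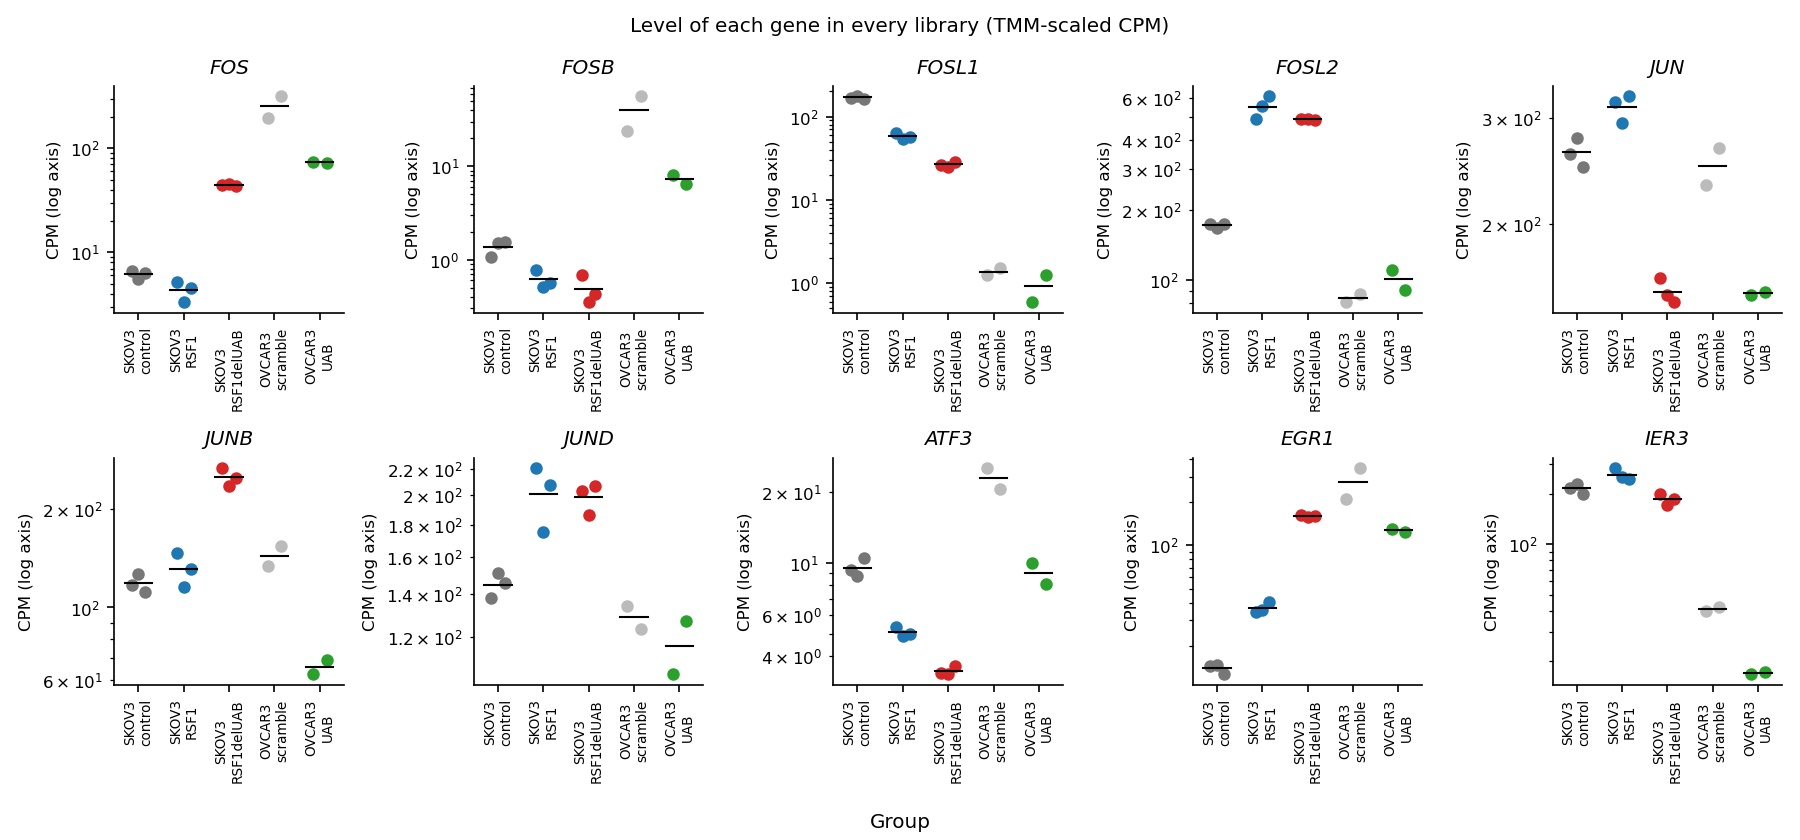
TMM-scaled CPM of each of the 10 genes (vertical axis, logarithmic) in every library of the 5 groups (horizontal axis), with 1 point a library and a bar at the group mean. Within SKOV3, FOS and EGR1 are highest with RSF1delUAB, FOSL1 steps down over the 3 SKOV3 groups, and the 2 scrambled control libraries spread widely for FOS, FOSB and EGR1.

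Among JUN subunits, JUN, the partner with the strongest activation domain (ENSG00000177606, chromosome 1, 58776845 to 58784048), was called in opposite directions with the constructs. It stood at 262, 278 and 249 CPM in control, 319, 295 and 326 CPM with RSF1 and 163, 153 and 148 CPM with RSF1delUAB. RSF1 libraries were the highest and RSF1delUAB libraries the lowest, without overlap. JUN rose by 0.25 on the log2 scale with RSF1 (SE 0.0656, adjusted p = 0.00221) and fell by 0.77 with RSF1delUAB (SE 0.0665, adjusted p = 3.06e-09). Between constructs the difference was 1.02, a 2.03-fold higher level with RSF1 (SE 0.0665, adjusted p = 2.05e-10). OVCAR3 levels were 232 and 267 CPM with the scrambled control and 153 and 155 CPM with the peptide. Both peptide libraries were lower, with a log2 fold change of -0.70 (SE 0.132, adjusted p = 0.00328).

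JUNB, a JUN protein that can restrain JUN at some genes (ENSG00000171223, chromosome 19, 12791486 to 12793315), moved opposite to JUN with RSF1delUAB. It stood at 117, 127 and 112 CPM in control, 146, 115 and 131 CPM with RSF1 and 266, 234 and 247 CPM with RSF1delUAB. RSF1 and control libraries overlapped, and RSF1delUAB libraries stood above all others. The difference with RSF1 was 0.15 (SE 0.0818, adjusted p = 0.122), and it was called with scaling to library totals or upper quartiles (adjusted p = 0.0297 and 0.0218) and without RSF1 replicate 2 (0.24, adjusted p = 0.0118). Without RSF1 replicate 1 it was 0.059 (adjusted p = 0.412). JUNB rose by 1.07 with RSF1delUAB (SE 0.0815, adjusted p = 4.18e-10), and RSF1 cells were lower than RSF1delUAB cells (log2 fold change -0.93, SE 0.0810, adjusted p = 1.55e-08). In OVCAR3 the levels were 134 and 154 CPM with the scrambled control and 62.5 and 69.0 CPM with the peptide. Peptide libraries lay below both controls, at a log2 fold change of -1.13 (SE 0.138, adjusted p = 0.000113). HOOK2 overlaps JUNB on the opposite strand, with 8797 reads in SKOV3 against 24614 for JUNB, and 4732 against 9230 in OVCAR3.

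JUND, the constitutive JUN protein (ENSG00000130522, chromosome 19, 18279694 to 18281622), rose with both constructs. It stood at 138, 151 and 146 CPM in control, 221, 175 and 208 CPM with RSF1 and 203, 186 and 207 CPM with RSF1delUAB. Both construct groups lay above control and overlapped each other. JUND rose by 0.47 with RSF1 (SE 0.0783, adjusted p = 2.15e-05) and 0.45 with RSF1delUAB (SE 0.0781, adjusted p = 3.51e-05). The difference between constructs was 0.02 (SE 0.0775, adjusted p = 0.869). In OVCAR3 it stood at 134 and 124 CPM with the scrambled control and 105 and 127 CPM with the peptide. These groups overlapped, and the difference of -0.15 (SE 0.140) was not called (adjusted p = 0.554).

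EGR1, a zinc finger factor of the same early response (ENSG00000120738, chromosome 5, 138465479 to 138469303), rose most of the 10 genes with RSF1delUAB. It stood at 14.4, 14.7 and 12.6 CPM in control, 34.5, 35.6 and 40.5 CPM with RSF1 and 164, 157 and 161 CPM with RSF1delUAB. The 3 groups were separate steps upward. EGR1 rose 2.65-fold with RSF1 (log2 fold change 1.41, SE 0.0894, adjusted p = 2.71e-11) and 11.6-fold with RSF1delUAB (3.53, SE 0.0866, adjusted p = 1.09e-17). RSF1 cells were lower than RSF1delUAB cells (log2 fold change -2.12, SE 0.0777, adjusted p = 3.43e-14). In OVCAR3 it stood at 211 and 345 CPM with the scrambled control and 129.9 and 125 CPM with the peptide. Both peptide libraries lay below both controls, at -1.13 (SE 0.185, adjusted p = 0.00116). FOS, JUNB and EGR1 thus rose with RSF1delUAB in SKOV3 and fell with the UAB peptide in OVCAR3. FOSB, JUN, ATF3 and IER3 fell in both of these comparisons. With RSF1 in SKOV3, FOS fell, EGR1 rose and JUNB was not called.

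ATF3, a stress-induced factor that pairs with JUN proteins (ENSG00000162772, chromosome 1, 212565334 to 212620777), fell in 3 of the 4 comparisons. It stood at 9.26, 8.76 and 10.5 CPM in control, 5.35, 4.89 and 4.97 CPM with RSF1 and 3.40, 3.35 and 3.63 CPM with RSF1delUAB. The groups did not overlap. The log2 fold changes were -0.91 with RSF1 (SE 0.146, adjusted p = 1.55e-05) and -1.46 with RSF1delUAB (SE 0.151, adjusted p = 4.46e-08), and RSF1 cells were 0.55 higher than RSF1delUAB cells (SE 0.162, adjusted p = 0.0105). OVCAR3 libraries held 25.1 and 20.5 CPM with the scrambled control and 9.95 and 8.08 CPM with the peptide. Peptide libraries were lower, at -1.34 (SE 0.183, adjusted p = 0.000267).

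IER3, an early response gene that acts on cell survival (ENSG00000137331, chromosome 6, 30743199 to 30744548), was abundant in SKOV3. It stood at 217, 230.1 and 199 CPM in control, 284, 252 and 244 CPM with RSF1 and 198, 171 and 187 CPM with RSF1delUAB. RSF1 libraries were above control and RSF1delUAB libraries just below it. IER3 rose by 0.27 with RSF1 (SE 0.0750, adjusted p = 0.00329). It fell by 0.22 with RSF1delUAB (SE 0.0752, adjusted p = 0.0160), and this call was lost with scaling to library totals or upper quartiles (adjusted p = 0.0508 and 0.0515) and without control replicate 1 or 2 or RSF1delUAB replicate 2 (adjusted p 0.0516 to 0.128). The constructs differed by 0.49 (SE 0.0751, adjusted p = 2.82e-05). OVCAR3 libraries held 39.8 and 42.1 CPM with the scrambled control and 16.7 and 17.4 CPM with the peptide. Peptide libraries were lower than controls (log2 fold change -1.26, SE 0.148, adjusted p = 7.04e-05).

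The mix of FOS and JUN subunits was then compared within each library, on levels per length (CPM per kilobase of exon). In SKOV3 control cells FOSL1 was the first FOS subunit, at 27.3 ± 0.298% of the summed level of the 7 subunits (SD, n = 3), and FOSL2 made up 7.34 ± 0.425%. With RSF1 the order per length was turned, with FOSL2 at 20.8 ± 2.68% and FOSL1 at 8.32 ± 0.428%. The lead of FOSL1 in control rests on dividing by exon length. In CPM, FOSL1 (169 ± 5.34) and FOSL2 (173 ± 3.80) overlapped there. With RSF1delUAB FOSL2 held 18.0 ± 0.749%, FOSL1 3.75 ± 0.244% and FOS 3.67 ± 0.214%, against 0.594 ± 0.0720% for FOS in control. Among JUN subunits, JUNB took 36.0 ± 0.957% with RSF1delUAB against 19.7 ± 0.551% in control, while JUN took 11.3 ± 0.450% against 22.1 ± 0.460%. In OVCAR3 FOS was the main FOS subunit, at 25.1 ± 5.23% with the scrambled control and 12.9 ± 0.863% with the peptide (SD, n = 2). The summed level of the 7 subunits was 314 ± 42.7 CPM per kilobase with the scrambled control and 177 ± 8.86 with the peptide, and in SKOV3 it was 328.5 ± 12.3 in control, 372 ± 25.4 with RSF1 and 378 ± 14.5 with RSF1delUAB. In bulk RNA, fewer expressing cells and less RNA per cell cannot be told apart.

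**Figure D3:**
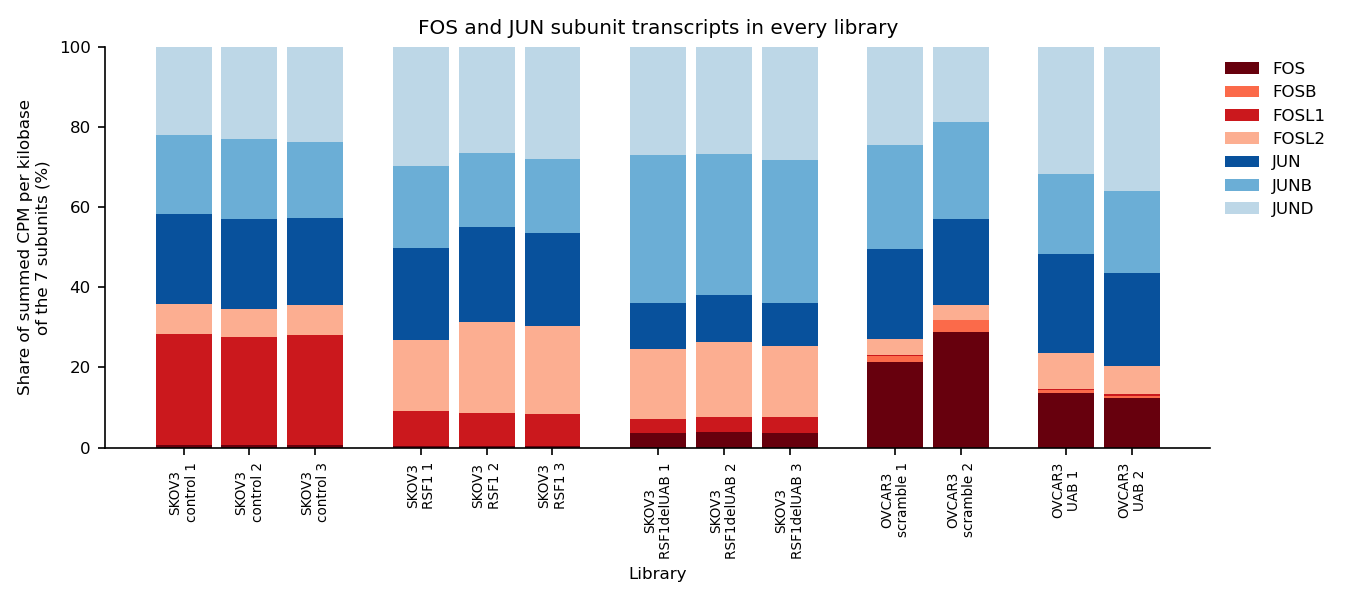
Share of the summed CPM per kilobase of the 7 FOS and JUN subunits (vertical axis, percent) held by each subunit in every library (horizontal axis), with FOS subunits in reds and JUN subunits in blues. FOSL1 fills 27.3% of SKOV3 control bars and 3.75% with RSF1delUAB, and JUNB fills 36.0% with RSF1delUAB.

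Ratios within a library put FOS and JUN subunits side by side directly. The mean log2 ratio of FOS to JUN per length was -5.22 in control, -6.00 with RSF1 and -1.62 with RSF1delUAB. It differed from control by -0.78 with RSF1 and by 3.60 with RSF1delUAB, and the groups did not overlap. In OVCAR3 it was 0.17 with the scrambled control and -0.89 with the peptide, a difference of -1.06 without overlap. The log2 ratio of FOSL1 to JUN differed from control by -1.79 with RSF1 and -1.90 with RSF1delUAB. It differed by 0.11 between the constructs, whose libraries overlapped, and by 0.05 in OVCAR3. The log2 ratio of JUNB to JUN differed from control by 1.84 with RSF1delUAB and by -0.11 with RSF1, where libraries overlapped, and in OVCAR3 it differed by -0.43. Exact two-sided permutation tests over libraries gave p = 0.1 for each SKOV3 difference without overlap and p = 0.333 for those in OVCAR3, the smallest these group sizes allow. None of the 16 passed after Benjamini-Hochberg adjustment (lowest adjusted p = 0.16), and the design could not have reached an adjusted p under 0.05.

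The 10 genes were ordered by level per length within each group. The tables of both lines were scaled separately, so no level was tested across lines. In SKOV3 control cells IER3 led at 159.6 ± 11.4 CPM per kilobase, followed by FOSL1 at 89.8 ± 2.83, and JUND, JUN and JUNB came next with overlapping neighbours. FOS, at 1.94 ± 0.173, and FOSB, at 0.248 ± 0.0499, were last. With RSF1, JUND was second and FOSL1 sixth, and with RSF1delUAB, IER3 and JUNB led together with overlapping libraries and FOSL1 overlapped FOS. These leads rest on dividing by exon length. In CPM, JUN (263) stood above IER3 (215) in control, and FOSL2 (488) led with RSF1delUAB. In OVCAR3 with the scrambled control EGR1 led at 88.7 ± 30.1 CPM per kilobase, and each of EGR1, FOS, JUNB, JUN and JUND overlapped its neighbour in the order. With the peptide JUND led at 60.2 ± 8.24, ahead of JUN at 42.5 ± 0.360, and FOSL1 was last in both OVCAR3 groups.

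Genes around AP-1 were read from 4 lists, also chosen with earlier results known, each set beside the shares of all tested genes called. Those were 34.3% higher and 32.9% lower with RSF1, and 34.5% and 32.1% with RSF1delUAB. Between constructs they were 18.5% and 20.2%, and with the UAB peptide 5.45% and 5.46%. Of 32 tested immediate early genes other than the 10, 13 rose and 13 fell with RSF1, 12 rose and 14 fell with RSF1delUAB, and 0 rose and 15 fell with the UAB peptide. Their median log2 fold change with the peptide was -0.49, beside 0.01 over all tested genes. The count of 0 rises stood also at an unadjusted p under 0.05, where 20 were lower, and with DESeq2 and limma-voom. Leaving out each OVCAR3 library in turn gave 13 or 14 falls of 33 tested. The named falls were the phosphatases DUSP5 (12.7 ± 0.562 against 41.9 ± 8.31 CPM) and DUSP2 (4.50 ± 2.28 against 19.2 ± 1.22 CPM) and the matricellular gene CCN2 (216 ± 3.31 against 456 ± 62.4 CPM). In SKOV3 the GTPase gene RHOB rose by 1.72 with RSF1 and 2.32 with RSF1delUAB, and DUSP5 fell (-1.45 and -1.26). KLF4, a zinc finger factor, fell (-1.78 and -1.88). In the same order of constructs, the factor KLF6 (1.47 and 0.20), CCN2 (2.39 and 1.61), IER5L (0.24 and 1.23) and the pseudokinase TRIB1 (1.41 and 1.18) rose in both. The survival gene MCL1 (-0.90 and -0.47) and the stress gene GADD45A (-0.51 and -1.98) fell in both. Between constructs 9 of 32 were higher with RSF1, led by the phosphatase DUSP1 (1.57), KLF6 (1.27) and CCN1 (1.54), and 10 were lower, led by IER5L (-0.995), RHOB (-0.60) and KLF10 (-0.65).

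Known AP-1 target genes went both ways. Of 34 tested, 15 rose and 13 fell with RSF1 (median 0.01). With RSF1delUAB 11 rose and 21 fell (median -0.69, beside 0.02 over all genes). Of all tested genes 67.3% were called with RSF1 and 66.6% with RSF1delUAB. The collagenase MMP1 stood at 35.4 ± 0.503 CPM in control, 110.2 ± 9.17 CPM with RSF1 and 954.6 ± 6.84 CPM with RSF1delUAB. MT2A, a metallothionein, rose by 3.52 and 2.21 on the log2 scale, and the tissue factor gene F3 fell (-2.17 and -3.99). The cytokine IL6 (6.11 and 1.64) and BCL3 (1.63 and 1.53) also rose with both constructs. The integrin ITGB4 (-5.26 and -2.20), the cyclin CCND1 (-1.85 and -1.59) and the laminin gene LAMB3 (-0.85 and -2.35) fell with both. Between constructs 14 were higher and 12 lower with RSF1. The chemokine CXCL8 (4.19), F3 (1.82) and HMGA1 (1.57) were higher, and MMP1 (-3.12), ITGB4 (-3.06) and SPP1 (-0.78) were lower. In OVCAR3 0 of 33 rose and 10 fell with the peptide (median -0.40), and at an unadjusted p under 0.05 3 were higher and 14 lower. Over all genes 5.45% were higher and 5.46% lower at an adjusted p under 0.05. CD44, a hyaluronan receptor, stood at 7.67 ± 0.0388 against 55.0 ± 7.67 CPM, CXCL8 at 4.04 ± 1.00 against 33.7 ± 1.75 CPM, and LAMB3 at 76.8 ± 2.32 against 155 ± 9.01 CPM. DESeq2 and limma-voom also gave 0 and 10, and leaving out each OVCAR3 library in turn gave 0 rises and 10 to 13 falls.

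The 24 genes upstream of FOS and JUN encode MAP kinases, serum response factor and its partners. With RSF1 6 rose and 16 fell (median -0.43), and with RSF1delUAB 7 rose and 13 fell (median -0.23). Of all tested genes 67.3% and 66.6% were called. The SRF coactivator MRTFA rose by 1.01 and 0.98, the kinase MAPK3 by 0.57 and 0.88, and RPS6KA5 by 1.13 and 1.22. NAB1, a corepressor of EGR factors, fell (-1.18 and -0.82), as did the kinases RPS6KA1 (-0.97 and -0.78), RPS6KA3 (-1.02 and -0.70) and MAP2K1 (-0.73 and -0.88). RSF1 cells had less NAB2 (-0.95) and ELK3 (-0.64) and more MAP2K2 (0.22) than RSF1delUAB cells, among 11 lower and 1 higher of 24. In OVCAR3 5.45% of all genes were higher and 5.46% lower with the peptide. Of these 24, 0 were higher with the peptide and RPS6KA1 alone was lower (-0.48), at a median of -0.02. That call was lost without scrambled control replicate 1 or UAB replicate 1, and at an unadjusted p under 0.05 0 were higher and 2 lower.

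Of 13 tested AP-1 partners and leucine zipper relatives, 4 rose and 5 fell with RSF1, and 4 rose and 4 fell with RSF1delUAB. These counts lay near the shares of all tested genes called, 67.3% and 66.6%. JDP2, a JUN partner known as a repressor, went from 3.51 ± 0.551 CPM in control to 26.1 ± 3.57 CPM with RSF1 and 26.8 ± 2.34 CPM with RSF1delUAB. ATF2 rose by 0.42 and 0.61 and ATF4 by 0.52 and 0.25. The small MAF genes MAFG (-1.31 and -1.14) and MAFK (-1.17 and -1.26) fell, as did CREM (-0.42 and -0.39). Between constructs ATF4 was higher with RSF1 (0.27) and ATF7 lower (-0.27), of 1 higher and 2 lower in all. With the peptide 5.45% of all OVCAR3 genes were higher and 5.46% lower. Of these 13 relatives 0 were higher. MAFF (-0.92), which is also on the immediate early list, and MAFG (-0.49) were lower. At an unadjusted p under 0.05 3 were higher and 3 lower, and DESeq2 and limma-voom gave 0 and 2. Without scrambled control replicate 1, or without either UAB replicate, 1 was lower and 0 higher, and without scrambled control replicate 2 there were 2 lower and 1 higher.

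**Figure D4:**
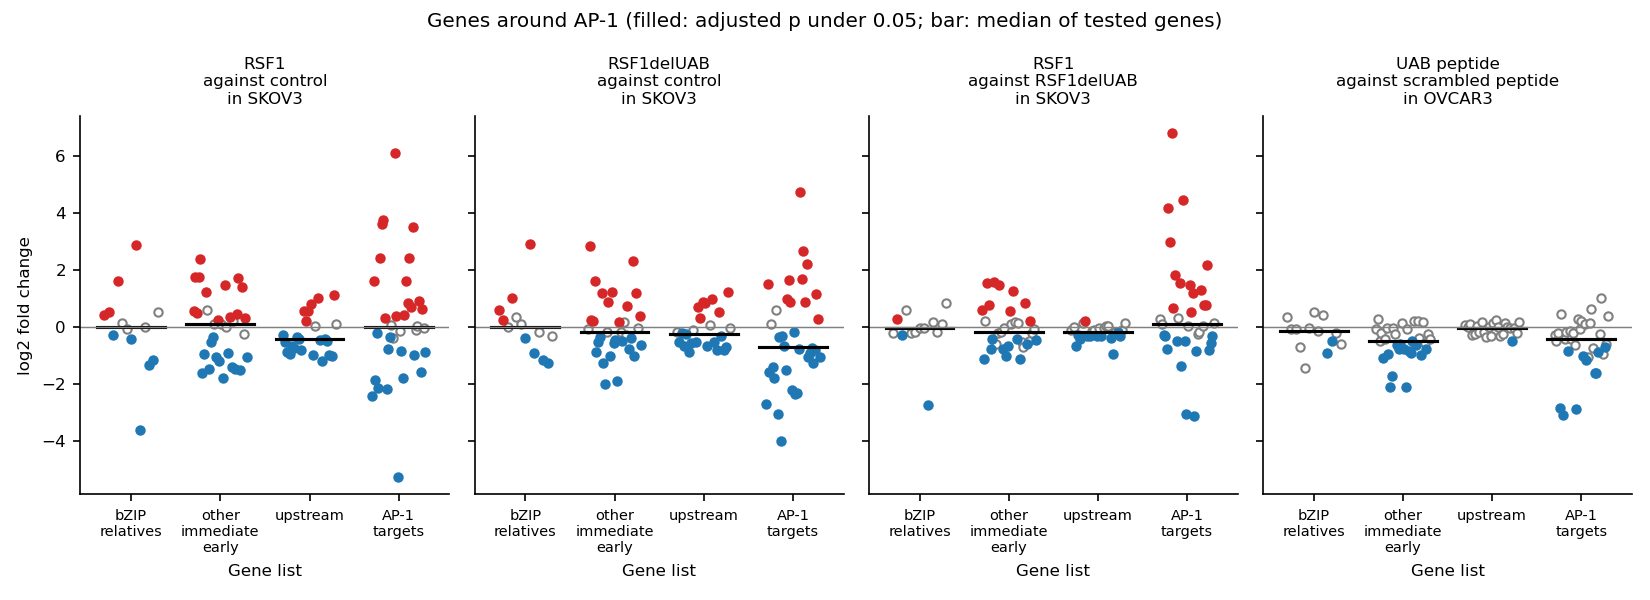
Log2 fold change (vertical axis) of each tested gene in the 4 lists around AP-1 (horizontal axis) in the 4 comparisons, with filled points at an adjusted p under 0.05, red for higher and blue for lower, and a bar at the list median. In OVCAR3 no point above 0 is filled, and the immediate early and target lists have medians of -0.49 and -0.40.

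The genes whose levels ran most like those of 6 members over the 9 SKOV3 libraries were picked from 10909 genes by Pearson correlation of log2 CPM. These libraries fall into 3 groups, so the values describe a shared group pattern. For FOS they were GRB7 (0.996), HEXIM1 (0.994) and SIGLEC15 (0.992), and for EGR1 they were APLP2 (0.998), ABCC3 (0.996) and SRCIN1 (0.996). FOSL1 ran with ARTN (0.998), F3 (0.997) and CAV1 (0.997). JUN ran with SDC4 (0.991), NME4 (0.990) and OPTN (0.989), JUNB with EGFL7 (0.996), IER5L (0.994) and CRIP2 (0.994), and ATF3 with HNRNPAB (0.996), LIMA1 (0.994) and IARS2 (0.993).

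Neighbouring genes also moved in SKOV3, so each member was set beside the median of genes within 10 Mb. Around FOS that median was 0.76 with RSF1 and 0.85 with RSF1delUAB, around FOSB 0.72 and 0.53, and around ATF3 -0.59 and -0.61. FOS thus fell with RSF1 in a stretch that stood higher. For JUND the median was 0.41 and 0.25, and for IER3 0.31 and 0.38. Around JUN and EGR1 it was near 0 (-0.04 and -0.04, and -0.0024 and -0.0013). After an offset for these medians, RSF1 against control called 3 members higher and 3 lower. JUND (0.06, adjusted p = 0.522) and ATF3 (-0.31, adjusted p = 0.0684) were then not called, and JUNB (-0.10) and IER3 (-0.04) changed sign without a call.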

How the data were processed

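Poly-A RNA of 2 ovarian cancer lines was sequenced in 13 libraries, after TRIzol extraction, poly-T capture and random hexamer priming, per the labels' protocols. The authors deposited raw read counts, 1 table for each line. FastQC, STAR 2.7.9a and Subread are named in the submitters' processing notes, beside the builds GRCh38, hg38 and GRCm38. Which annotation and strand setting were used is not given in the sources used here. Coordinates and exon lengths are those of the deposited tables, on GRCh38. The record of ANK2, split over lines, was rejoined.

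Samples were grouped by their labels. One letter in the column name of the second scrambled control is unexplained. Each line was fitted with edgeR 4.0.16 in R 4.3.3 (TMM, filterByExpr with a minimum count of 10, quasi-likelihood test, prior count 0.125). Benjamini-Hochberg adjustment ran over 16735 genes in SKOV3 (6 residual degrees of freedom) and 18359 in OVCAR3 (2), with a threshold of 0.05. A standard error is the size of the log2 fold change divided by the square root of F. Replicates differed by more than sampling noise (chi-square per degree of freedom 2.28 to 16.3). The highest SKOV3 values were those of RSF1 replicate 1 against 2 (14.2) and 3 (16.3), beside 3.91 for 2 against 3. In OVCAR3 they were 15.0 with the scrambled control and 12.9 with the peptide.

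The members and gene lists were chosen with earlier results of these data known. All 10 members are named. Of each list, up to 3 risen and 3 fallen genes with the smallest adjusted p and a mean log2 CPM of at least 2 are named, except for a few not reported here. Ratios within a library used exact permutation tests with a pseudocount of 0.5. Promoter windows of 250 bases came from RefSeq, in which 8 of the 10 members matched, and were searched on both strands for the motifs named beside them. The fits were tested on simulated data. Alternatives were other scalings and count filters, DESeq2 1.42.0, limma-voom (limma 3.58.1), only the groups compared, a replicate block, a 10 Mb neighbourhood offset and each library left out.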

Additional observations from a re-analysis of the deposited data

How the results depend on the processing

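Scaling, tool and count filter left the counts of members and of all genes within 1.5 times. With the 10 Mb neighbourhood offset, 3 members in place of 5 were higher with RSF1 than in control, JUNB (-0.10) and IER3 (-0.042) reversed there without a call, and JUND reversed between the constructs (-0.14). Leaving out 1 library, the members lower with RSF1 numbered 2 to 4, with 2 without RSF1 replicate 2. JUND between the constructs ran from -0.05266 without RSF1 replicate 1, through -0.02632 without RSF1delUAB replicate 2 and -0.001862 without RSF1 replicate 3, to 0.1175 without RSF1 replicate 2, and was not called in any of these. In OVCAR3 the genes higher numbered 633 without scrambled control replicate 1 to 1194 without scrambled control replicate 2, beside 1001 with all, and the log2 ratio of FOSL1 to JUN ran from -0.48 without UAB replicate 2 to 0.57 without UAB replicate 1, beside 0.05 with all. The summed FOS to summed JUN ratio was lower than in control per kilobase (-0.38 with RSF1, -0.68 with RSF1delUAB) and higher on counts (0.52 and 0.48), since FOSL2 is the longest transcript.

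Correlations of the deviations of same-numbered libraries ran from -0.147 to 0.209 in SKOV3 and were -0.438 in OVCAR3. Differently numbered OVCAR3 libraries gave 0.438, which with 2 libraries in each group is the same value with its sign turned. RSF1 and RSF1delUAB libraries numbered 1 (0.198) and 2 (0.209) were the highest in SKOV3, where different numbers reached 0.107, and number 3 of these constructs gave 0.0259. Not every pair exceeded 0.1, so the numbers were not taken as pairs. With the replicate block, 5668 genes were higher and 5496 lower with RSF1, 5687 and 5320 with RSF1delUAB, 3012 and 3321 between the constructs, and 928 and 842 in OVCAR3. FOSL2 between the constructs (0.18) was then not called (adjusted p = 0.0523). A crossed block in OVCAR3, chosen after seeing the data, called 2560 genes higher and 2537 lower, with 1 member higher. Counts under 25 reads per SKOV3 library limit FOSB, and 12 to 35 reads limit FOSL1 in OVCAR3.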
